A study of Mus musculus with 11 samples.

Results

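Mitosis and spindle checkpoint genes were followed through the differentiation of mouse embryonic stem (ES) cells. The genes were Cdk1, Mki67, Bub1, Ccna2, Ccnb1, Ccnb2, Plk1, Aurka, Mad2l1 and Top2a, and their probe sets were those that the platform annotation assigns to exactly 1 symbol, one of these 10. Of the 10 genes, 9 had such a probe set, out of 8251 genes represented in the series. Ccnb1 had none. The 9 genes had 14 probe sets, of which 13 passed the filter on low values described below, and every gene had at least 1 among them. Bub1 and Plk1 had 3 probe sets each, Mki67 had 2 and the other 6 genes had 1. Where a gene had several, the brightest on average stands for it, and the rest are given beside it.

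RNA was measured on 11 Affymetrix MG_U74Av2 arrays with 1 culture on each. Undifferentiated cells of the established mouse ES cell line R1 were grown on embryonic fibroblast feeders (n = 3, replicates 1, 5 and 9). The same line was differentiated towards cells positive for nestin, an intermediate filament of neural progenitors, for 4+8 days (n = 3, replicates 1, 2 and 3) or 4+11 days (n = 3, replicates 4, 8 and 12). The feeder fibroblasts themselves gave 2 arrays (replicates 6 and 10). No group carried a named genetic change or drug, and all ES-derived cultures came from the 1 line. The labels speak of 3 independent cultures, so p-values between ES-derived groups rest on separate cultures, while for the feeder arrays this is not stated and the spread between them may be technical. The labels also do not say whether the feeder cells had been growth-arrested. The array of feeder replicate 10 is titled as feeder layer although its source name is the ES cell line, and it was grouped by title.

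Entry into mitosis is driven by the kinase CDK1, which is active only when bound to a cyclin of the A or B type. Aurora A and Polo-like kinase 1 then mature the centrosomes and build the spindle, while BUB1 and MAD2 belong to the checkpoint that delays chromosome separation until every kinetochore is attached. The transcripts of these genes build up late in the cell cycle, and ES cells are known to cycle fast with a short G1 phase. RNA of a whole culture was measured here, so fewer dividing cells and less RNA per cell cannot be told apart.

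Values are probe set intensities on a linear scale after quantile normalisation, and differences are on the scale of log2(intensity + 8), which understates the change of dim genes. The error of a log2 difference is its SE from the fit, and adjusted p-values are limma's. A probe set counted as changed, and the words rose and fell are used, where limma's adjusted p was below 0.05 over 8940 probe sets. As deposited, the 3 arrays of the 4+8 day group had a common trimmed mean near 200.1 and the other 8 lay between 86.2 and 160.2. The 4+8 day arrays also had a scan session and a chip lot of their own, so group and session cannot be told apart wherever they are compared. A single session held the remaining 8, in 3 fluidics runs, and 2 of these, undifferentiated replicate 9 and 4+11 day replicate 12, had a different wash protocol. The 8 pluripotency markers summed to between 17122 and 19364 on the undifferentiated arrays and to at most 2275 on any other. The summed intensity of 8 fibroblast markers was 34148 and 38475 in the feeder cells and 7156 to 11480 in the undifferentiated cultures. Nes, the gene of nestin, averaged 192 in undifferentiated cells, 281 at 4+8 days, 460 at 4+11 days and 462 in feeder cells.

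The undifferentiated cells had the highest group mean for 8 of the 9 genes, all but Mki67. How many of all probe sets had this order was not counted. After 4+8 days Aurka, Bub1 and Mad2l1 fell, and after 4+11 days Aurka, Bub1 and Plk1 fell. Cdk1, Ccna2, Ccnb2, Mki67 and Top2a passed at neither time by the test described above. No member rose in any comparison. The counts were 3 of 9 members at 4+8 days, where 37.1% of all probe sets passed (19.9% lower), and 3 of 9 at 4+11 days, where 18.7% passed (9.44% lower). The first count is close to what all probe sets gave. The median log2 difference of the 9 members was −0.61 at 4+8 days and −0.83 at 4+11 days, against 0.01 and −0.03 over all probe sets. In feeder cells 2 of 9 members, Aurka and Plk1, were lower than in undifferentiated cells, where 20.4% of all probe sets passed (10.3% lower). These 3 comparisons share the undifferentiated arrays.

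**Figure D1:**
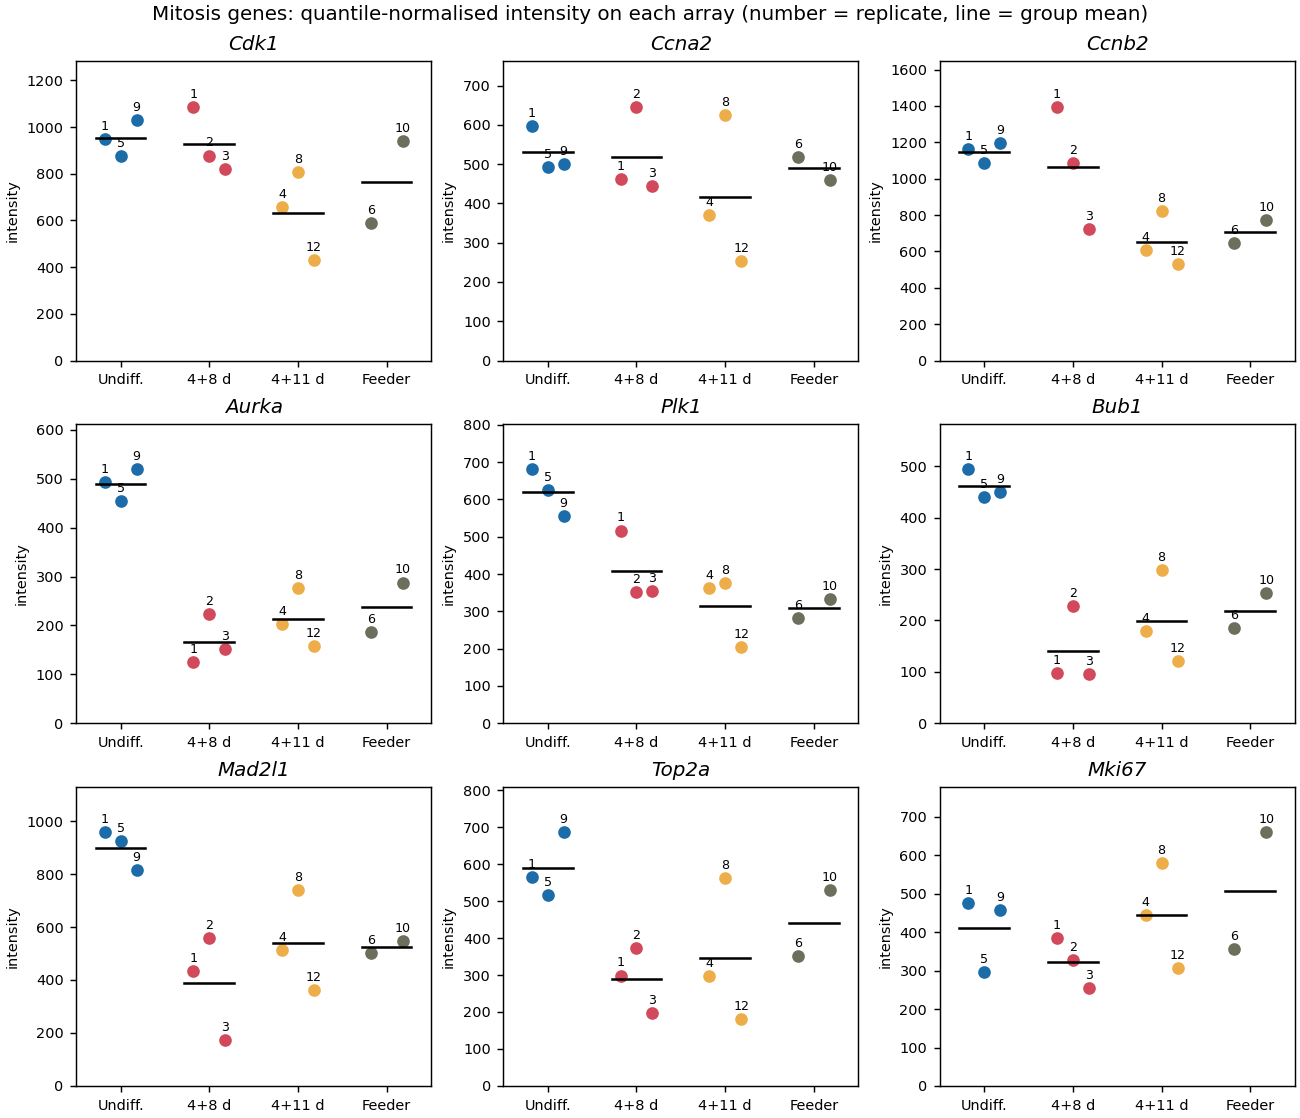
Quantile-normalised intensity (vertical axis, linear, from 0) of the 9 members on each of the 11 arrays, with 1 point per array, its replicate number and the group mean as a line. Aurka, Bub1, Plk1 and Mad2l1 had all 3 undifferentiated arrays above every other array, whereas the groups of Ccna2 and Mki67 overlapped. How many of all probe sets had the first of these patterns was not counted.

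The kinases of spindle assembly, Aurka and Plk1, come first, with the promoters shown because the transcripts of late cell cycle genes are commonly controlled through a pair of short elements there.
The windows run from 120 bases before to 30 after the transcription start, 5′ to 3′ on the strand of the gene, from RefSeq on build GRCm38.p6. Capitals mark the letters TTTGAA (a form of the CHR element) and CCAAT, each also in reverse complement. Other forms of these elements were not searched.
Aurka promoter, chr2:172370541-172370690, minus strand: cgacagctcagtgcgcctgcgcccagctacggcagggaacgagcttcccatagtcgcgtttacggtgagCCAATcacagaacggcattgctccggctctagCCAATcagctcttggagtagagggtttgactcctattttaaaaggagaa
Plk1 promoter, chr7:122159315-122159464, plus strand: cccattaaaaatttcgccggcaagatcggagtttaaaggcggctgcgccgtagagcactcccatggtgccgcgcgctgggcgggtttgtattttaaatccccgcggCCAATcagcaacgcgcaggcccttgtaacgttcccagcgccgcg
The table held promoters of 9 of the 10 genes, among them Ccnb1, and not that of Ccna2. In the full windows of 300 bases (250 before and 50 after the start), CCAAT on either strand was in 8 of 9 member promoters and in 37.4% of all 32851. TTTGAA or its reverse complement was in 6 of 9 and in 17.9% of all. Aurka held CCAAT at positions −51 and −19 and TTTGAA from 33 to 38 after the start, just past the printed stretch. Plk1 held CCAAT at −14 and TTTGAA from 31 to 36. These matches are descriptions of letters and not of binding, and a link between them and the differences in intensity was not tested.

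Aurka encodes Aurora A, which matures centrosomes and organises the spindle poles. Its intensity was 493, 455 and 519 on undifferentiated replicates 1, 5 and 9, and 125, 224 and 152 on 4+8 day replicates 1, 2 and 3. It was 203, 276 and 158 on 4+11 day replicates 4, 8 and 12, and 186 and 288 on feeder replicates 6 and 10. The lowest undifferentiated array lay well above the highest of all the others, and the 3 other groups overlapped among themselves. Aurka fell at 4+8 days to 0.342 of the undifferentiated level (log2 −1.55 ± 0.28, SE, adjusted p = 0.00231 by limma) and at 4+11 days to 0.434 (−1.21 ± 0.28, adjusted p = 0.0155). In feeder cells the level was 0.482 of that in undifferentiated cells (−1.05 ± 0.31, adjusted p = 0.0390).

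Plk1 encodes Polo-like kinase 1, which acts from mitotic entry to cytokinesis. Its brightest probe set gave 680.3, 626 and 555 in undifferentiated cells and 517, 353 and 354 at 4+8 days. It gave 362, 375 and 205 at 4+11 days and 282 and 333 in feeder cells. Each undifferentiated array was again above every other array, but the gap to 4+8 day replicate 1 was narrow. Plk1 fell at 4+11 days to 0.498 of the undifferentiated level (log2 −1.01 ± 0.26, adjusted p = 0.0249) and was at 0.503 in feeder cells (−0.99 ± 0.29, adjusted p = 0.0390). Its difference of −0.61 ± 0.26 at 4+8 days did not pass (adjusted p = 0.0897). The other 2 probe sets of Plk1, whose f suffix marks probes that can match related transcripts, did pass at 4+8 days, at −0.71 (adjusted p = 0.0186) and −1.54 (adjusted p = 0.00324). At 4+11 days they gave −1.06 and −1.18, close to the first. In feeder cells they gave −0.56 and −0.96, with adjusted p of 0.104 and 0.0674. The 3 probe sets thus had 1 direction in each of these comparisons but differed in size at 4+8 days.

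The checkpoint genes Bub1 and Mad2l1 follow, both of which fell at 4+8 days. Their promoters are shown because the pair differs in these letters.
Bub1 promoter, chr2:127831830-127831979, minus strand: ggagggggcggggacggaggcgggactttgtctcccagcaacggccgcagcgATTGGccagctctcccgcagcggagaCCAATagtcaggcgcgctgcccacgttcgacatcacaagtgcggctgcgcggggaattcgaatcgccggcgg
Mad2l1 promoter, chr6:66535101-66535250, plus strand: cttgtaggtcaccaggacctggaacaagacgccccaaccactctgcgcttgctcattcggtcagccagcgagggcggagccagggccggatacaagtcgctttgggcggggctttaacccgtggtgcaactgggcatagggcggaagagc
Bub1 held CCAAT at −42 and its reverse complement at −68 and no TTTGAA within the 300 bases. Mad2l1 held neither set of letters in that window. No member promoter held TATAAA, which was in 13.6% of all windows.

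Bub1 encodes a kinase that recruits checkpoint proteins to kinetochores. The brightest probe set read 494, 439.7 and 449 in undifferentiated cells and 98.4, 228 and 96.4 at 4+8 days. It read 179, 299 and 120.2 at 4+11 days and 186 and 252 in feeder cells. Undifferentiated arrays were all higher than the rest, and 4+8 day replicate 2 and 4+11 day replicate 8 were the highest of the differentiated arrays. Bub1 fell at 4+8 days to 0.295 of the undifferentiated level (log2 −1.76 ± 0.38, adjusted p = 0.00558) and at 4+11 days to 0.416 (−1.27 ± 0.38, adjusted p = 0.0423). The feeder difference of −1.06 ± 0.42 did not pass (adjusted p = 0.106), although both feeder arrays lay below the undifferentiated ones. A dimmer Bub1 probe set read 33.8 to 54.3 in undifferentiated cells and 4.70 to 7.58 at 4+8 days, and its difference there was −1.94 (adjusted p = 0.00575), against −1.34 at 4+11 days, which did not pass (adjusted p = 0.05004). Only the undifferentiated arrays and feeder replicate 10 exceeded the filter value of 33.4 for this probe set. It was thus tested because it was high there and gives no independent support, and the sizes depend on the pseudocount of 8. The third, between 2.12 and 36.1 on all arrays, was removed by the filter.

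Mad2l1 encodes MAD2, which holds back the anaphase-promoting complex at unattached kinetochores. Its intensity was 958, 926 and 814 in undifferentiated cells and 435, 557 and 174 at 4+8 days. It was 512, 738 and 363 at 4+11 days and 501 and 548 in feeder cells. All 3 undifferentiated arrays exceeded all others, and 4+8 day replicate 3 was the lowest of the 11. Mad2l1 fell at 4+8 days to 0.395 of the undifferentiated level (log2 −1.34 ± 0.39, adjusted p = 0.0237). The differences at 4+11 days (−0.79 ± 0.39, adjusted p = 0.197) and in feeder cells (−0.77 ± 0.44, adjusted p = 0.263) did not pass.

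Cdk1 and its cyclins had another order. The promoters of Cdk1 and Ccnb2 are shown because both hold the pair of elements close to the start. Neither gene passed against undifferentiated cells by the test described above, although Ccnb2 passed in some of the alternative fits given below.
Cdk1 promoter, chr10:69352883-69353032, minus strand: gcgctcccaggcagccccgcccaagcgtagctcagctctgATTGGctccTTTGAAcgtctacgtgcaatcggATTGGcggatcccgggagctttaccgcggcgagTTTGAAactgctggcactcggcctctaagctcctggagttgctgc
Ccnb2 promoter, chr9:70421525-70421674, minus strand: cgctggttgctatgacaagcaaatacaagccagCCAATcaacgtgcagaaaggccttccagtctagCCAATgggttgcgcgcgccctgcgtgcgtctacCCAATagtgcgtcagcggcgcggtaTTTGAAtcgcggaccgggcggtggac
Ccnb2 held CCAAT at −87, −54 and −21 and TTTGAA from 5 to 10 after the start. Cdk1 held TTTGAA at −71 and −15 and the reverse complement of CCAAT at −80 and −48. Upstream of the printed stretch, Cdk1 also had the E2F core GCGCGAAA in reverse complement, at −131 to −124, which was in 1 of 9 member promoters and in 0.323% of all.

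Cdk1 encodes the kinase that starts mitosis. Its intensity was 951, 876 and 1032 in undifferentiated cells and 1087, 878 and 819 at 4+8 days. It was 657, 808 and 430.2 at 4+11 days and 590.5 and 939 in feeder cells. The 4+8 day arrays straddled the undifferentiated ones, and all 4+11 day arrays lay below both groups. Its log2 difference was −0.05 ± 0.27 (adjusted p = 0.910) at 4+8 days and −0.63 ± 0.27 (adjusted p = 0.131) at 4+11 days, so neither passed. In feeder cells it was −0.35 ± 0.30 (adjusted p = 0.467), with replicate 10 among the undifferentiated arrays.

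Ccnb2 encodes cyclin B2, a partner of CDK1. It gave 1165, 1087 and 1195 in undifferentiated cells and 1396, 1084 and 721 at 4+8 days. It gave 607, 823 and 531 at 4+11 days and 643 and 770.2 in feeder cells. The group at 4+8 days was widely spread, from the highest of all 11 arrays to one below 4+11 day replicate 8. The 4+11 day and feeder arrays were all below the undifferentiated ones, with log2 differences of −0.83 ± 0.26 (adjusted p = 0.0511) and −0.70 ± 0.29 (adjusted p = 0.122). The difference at 4+8 days was −0.16 ± 0.26 (adjusted p = 0.664).

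Ccna2 encodes cyclin A2, which binds CDK2 in S phase and CDK1 later. It gave 597, 492 and 500.5 in undifferentiated cells and 463, 646 and 445 at 4+8 days. It gave 369, 625 and 255 at 4+11 days and 519 and 459 in feeder cells. Every group overlapped every other, and the log2 differences from undifferentiated cells were −0.05 ± 0.30, −0.43 ± 0.30 and −0.11 ± 0.34 in that order, none of which passed (adjusted p of 0.918, 0.358 and 0.865).

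Top2a encodes topoisomerase IIα, which disentangles sister chromatids. Its promoter held 6 matches of CCAAT in either direction, the most of the 9. It gave 565, 517 and 686 in undifferentiated cells and 299, 372 and 196 at 4+8 days. It gave 297, 561 and 181 at 4+11 days and 351 and 529.6 in feeder cells. The 4+8 day arrays lay below all undifferentiated arrays, while 4+11 day replicate 8 and feeder replicate 10 lay among them. Its differences of −1.04 ± 0.39 at 4+8 days (adjusted p = 0.0578), −0.89 ± 0.39 at 4+11 days (adjusted p = 0.141) and −0.43 ± 0.43 in feeder cells (adjusted p = 0.542) did not pass.

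Mki67 encodes Ki-67, a protein of dividing cells that coats mitotic chromosomes. Its brighter probe set gave 477, 297 and 457 in undifferentiated cells and 384, 328 and 254 at 4+8 days. It gave 445, 581 and 308 at 4+11 days and 357 and 660.2 in feeder cells. The groups overlapped throughout, and the highest array of the 11 was feeder replicate 10. Differences from undifferentiated cells were −0.33 ± 0.32, 0.10 ± 0.32 and 0.27 ± 0.36, with adjusted p of 0.440, 0.865 and 0.665. The dim second probe set, between 18.1 and 37.6 on all arrays, had the 4+8 day arrays above and the 4+11 day arrays below all undifferentiated ones. Neither of those differences passed (0.31 and −0.37, adjusted p of 0.265 and 0.252).

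**Figure D2:**
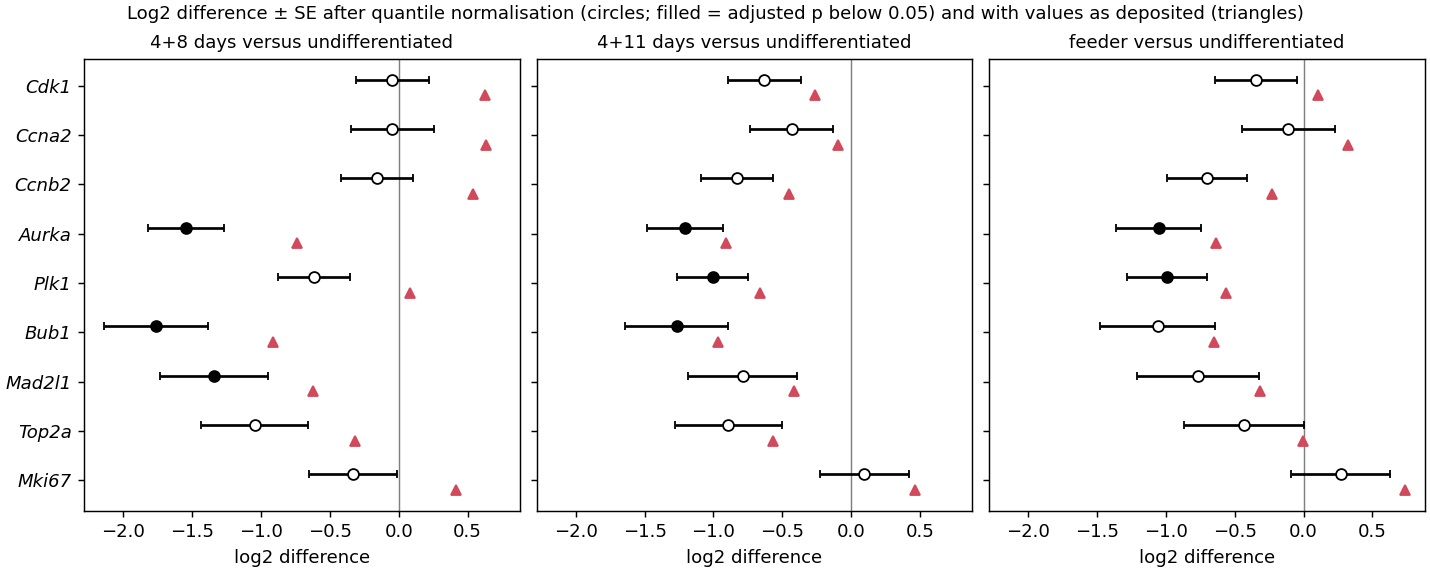
Log2 difference from undifferentiated cells (horizontal axis) for each member at 4+8 days, at 4+11 days and in feeder cells. Circles with SE bars are quantile-normalised values, filled where the adjusted p was below 0.05, and triangles are the values as deposited, which at 4+8 days lay to the right of 0 for Cdk1, Ccna2, Ccnb2, Plk1 and Mki67.

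The comparison of 4+8 day with undifferentiated cells asks how these genes stood at the earlier of the differentiated stages. The 4+8 day arrays lay below all undifferentiated arrays for 5 of 9 members (25.1% of all probe sets did), namely Aurka, Bub1, Mad2l1, Plk1 and Top2a. The direction of the weaker differences depended on the scale of the arrays. With values as deposited the median of all probe sets shifted by 0.99, and Cdk1 (0.63), Ccna2 (0.63), Ccnb2 (0.54), Mki67 (0.42) and Plk1 (0.08) turned positive while Aurka, Bub1 and Mad2l1 stayed negative at −0.74, −0.91 and −0.62, with no member passing. Relative to that median shift, all 9 members were negative, as they were after scaling to a common trimmed mean. The fall of Mad2l1 no longer passed without undifferentiated replicate 1 (adjusted p = 0.0700), 5 (0.0620) or 9 (0.0543) or without both arrays of the other wash protocol (0.0579), whereas Aurka and Bub1 passed in all 11 fits that left out 1 array (highest adjusted p of 0.0120 and 0.0227). Plk1 passed without 4+8 day replicate 1 (0.0487) or 4+11 day replicate 12 (0.0444), and Top2a without 4+8 day replicate 2 (0.0417) or 4+11 day replicate 8 (0.0237) or 12 (0.0322). Both also passed after scaling to a common trimmed mean (0.0427 and 0.0387).

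At 4+11 days, 6 of 9 members had every array below all undifferentiated arrays (23.7% of all probe sets did). They were Aurka, Bub1, Plk1, Cdk1, Ccnb2 and Mad2l1. Each of the 3 calls was lost when certain single arrays were left out, and all were lost with values as deposited (lowest adjusted p = 0.0816). Leaving out undifferentiated replicate 1 or 9 ended the call for Aurka (adjusted p of 0.0532 and 0.0603), as did leaving out 4+11 day replicate 4 or 12 (0.0578 and 0.0567). Plk1 lost its call without undifferentiated replicate 1, 5 or 9 (0.0913, 0.0725 and 0.0601) and without 4+11 day replicate 12 (0.0717). Ccnb2 passed without 4+8 day replicate 1, 2 or 3 or 4+11 day replicate 8 (0.0320, 0.0472, 0.0204 and 0.0366), and Top2a passed without 4+11 day replicate 8 (0.0284). A common trimmed mean (0.0480), pseudocount 32 (0.0350), an intensity trend (0.0290) and array weights (0.00966) also let Ccnb2 pass, as did leaving out all 4+8 day arrays (0.0139). Bub1 kept its call only without 4+8 day replicates 1, 2 or 3 or 4+11 day replicate 8, and its adjusted p ranged from 0.0141 to 0.139. It also lost its call with a pseudocount of 2 (0.0508) and with no filter (0.0560). With both arrays of the other wash protocol left out, no member passed, at −0.98 for Aurka, −0.81 for Plk1 and −0.98 for Bub1. With the fluidics run as a block, Aurka (−1.08, adjusted p = 0.0101), Bub1 (−1.02, 0.0215), Ccnb2 (−0.73, 0.0227) and Plk1 (−0.73, 0.0287) passed. That fit left out the 4+8 day arrays, which had no run given, and so had another estimate of the spread. Its difference rests on 4+11 day replicates 4 and 8, because replicate 12 was alone in its run. Within run 1 and run 2, each with at most 2 arrays a group and no test, Aurka differed by −1.19 and −0.89, Bub1 by −1.34 and −0.57, Plk1 by −0.84 and −0.55, and Ccnb2 by −0.88 and −0.53. The median over the 9 members was −0.85 in run 1 and −0.35 in run 2. In run 2 undifferentiated replicate 9 had the different wash protocol and 4+11 day replicate 8 the usual one, so group and wash cannot be told apart there. Run 3 held 1 array, 4+11 day replicate 12, and gives no value.

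Between 4+11 and 4+8 days none of the 9 genes passed by its brightest probe set, where 23.1% of all probe sets did, and 1 member, Ccnb2, passed at an unadjusted p below 0.05. The median of the members was 0.15. Cdk1 was lower on each 4+11 day array than on any 4+8 day array (−0.59 ± 0.27, adjusted p = 0.139), the only gene of the 9 whose groups did not overlap (17.1% of all probe sets were lower without overlap). Ccnb2 differed by −0.67 ± 0.26 (adjusted p = 0.0886), and it passed with values as deposited (−0.99, 0.0339) and without 4+8 day replicate 3 (−0.93, 0.0193). Mad2l1, Bub1 and Aurka were on average higher at 4+11 days, by 0.55, 0.50 and 0.34, with adjusted p of 0.338, 0.367 and 0.403, and the last pair turned negative with values as deposited. The dim Mki67 probe set was lower by −0.68 ± 0.21 (adjusted p = 0.0419), while the brighter one differed by 0.43 ± 0.32 the other way (adjusted p = 0.362). Since the dim one passed the filter mainly through the 4+8 day arrays, its call is no independent result.

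Feeder cells were compared with the undifferentiated cells grown on them. All feeder arrays lay below the undifferentiated ones for 5 of 9 members, Aurka, Plk1, Bub1, Ccnb2 and Mad2l1 (30.9% of all probe sets did). The calls for Aurka and Plk1 were lost when any undifferentiated or feeder array was left out or 4+11 day replicate 4 was, with adjusted p up to 0.290 and 0.222. The call for Aurka was also lost without both arrays of the other wash protocol (−1.01, 0.109). Both calls were lost with no filter (0.0533 and 0.0537) and with values as deposited (0.271 and 0.324). Bub1 passed without 4+8 day replicate 2 (0.0398). With the run as a block, Aurka (−1.11, adjusted p = 0.00662), Plk1 (−0.99, 0.00902), Bub1 (−1.11, 0.0124), Ccnb2 (−0.74, 0.0169) and Mad2l1 (−0.78, 0.0306) passed. Within runs 1 and 2 the differences were −1.31 and −0.83 for Aurka and −1.19 and −0.72 for Plk1, again with no test. The block fit left out the 4+8 day arrays. In run 2 the undifferentiated array had the different wash protocol and the feeder array the usual one, so group and wash cannot be told apart there.

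Differentiated cells were also compared with feeder cells. At 4+11 days 0 of 9 members differed from feeder cells by limma (2.93% of all probe sets passed), and 0 passed at an unadjusted p below 0.05. The differences ran from −0.46 for Top2a to −0.01 for Plk1, with standard errors of 0.29 to 0.44. A second Plk1 probe set differed by −0.50 (unadjusted p = 0.0443, adjusted p = 0.304). Within run 1 and run 2 the median over members was 0.03 and 0.10. Cells at 4+8 days had 0 of 9 members that differed from feeder cells by limma (27.4% of all probe sets passed), again with 0 at an unadjusted p below 0.05. The range was −0.70 for Bub1 to 0.54 for Ccnb2, and those 2 genes passed in 1 fit each, Bub1 without 4+8 day replicate 2 (adjusted p = 0.0467) and Ccnb2 without 4+8 day replicate 3 (0.0392).

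Replicates of the differentiated groups were farther apart in these genes than those of undifferentiated cells. The median SD of log2 intensity over the 9 members was 0.12 in undifferentiated cells, 0.41 at 4+8 days, 0.47 at 4+11 days and 0.30 in feeder cells. Over all probe sets it was 0.20, 0.45, 0.26 and 0.16. The 4+11 day group was ordered alike for every gene: replicate 8 was its highest array and replicate 12 its lowest for 9 of 9 members, and replicate 12 was the lowest of all 11 arrays for 5 of them. The share of all probe sets with this order was not counted. Replicate 12 also had the different wash protocol and was alone in fluidics run 3, so culture and processing cannot be told apart for it. At 4+8 days replicate 3 was the lowest for 7 of 9, and feeder replicate 6 was the lower feeder array for 8 of 9. Over the 36 pairs of members, Pearson's r across the 11 arrays had a median of 0.574 and ran from 0.0982 to 0.975. After each group's mean was removed, the median was 0.685 and the range 0.234 to 0.927. The pair at 0.0982, Mki67 and Ccnb2, then came to 0.768. These values describe arrays that share groups and scaling.

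Some lists of markers of other cell types moved with these differences between replicates and others did not. The summed intensity of 7 macrophage markers (Tyrobp, C1qa, C1qb, Ctss, Csf1r, Lyz2 and Cd68) was 6829, 835 and 12084 on 4+11 day replicates 4, 8 and 12, and 2616, 168 and 5719 on 4+8 day replicates 1, 2 and 3. It was 168 to 540 on undifferentiated arrays and 471 and 943 on feeder arrays. Thus the arrays lowest in mitosis genes in both differentiated groups were highest in macrophage markers. Of these arrays, 4+11 day replicate 12 had the different wash protocol and a fluidics run of its own. None of the 7 macrophage markers was at 0 on any array, but an intensity above 0 does not show that a transcript was present. On 4+8 day replicate 2, Lyz2 was at 3.86 and C1qb at 7.4, far below the filter value of 33.4. The pluripotency sum went the other way, at 612, 2275 and 288 on the 4+11 day arrays and 905, 1783 and 318 on the 4+8 day arrays. Both neural sums were ordered like the mean of the 9 members within each differentiated group, with replicates 2 and 8 highest and 3 and 12 lowest. The sum of 5 tested markers of postmitotic neurons was 1975, 2496 and 861 at 4+8 days, 1306, 3008 and 1276 at 4+11 days, 1089 to 1440.3 in undifferentiated cells and 1110.7 and 1183 in feeder cells. The sum of 7 neural progenitor markers was 616, 1040.9 and 496 at 4+8 days, 686, 1216 and 635 at 4+11 days and 438 to 474 in undifferentiated cells. On feeder replicates 6 and 10 it was 827 and 610, also above the undifferentiated arrays. Heart muscle and fibroblast sums kept neither that order nor its reverse throughout. The 7 tested heart muscle markers summed to 16005, 6859 and 8835 at 4+8 days, 3523, 1117 and 2953 at 4+11 days and 282 to 316 in undifferentiated cells. Their sum was 1618 and 772 on feeder replicates 6 and 10. Fibroblast markers summed to 23227, 9459 and 38001 at 4+8 days and to 24102, 13885 and 15274 at 4+11 days. The part of these cell types in the differences of the mitosis genes was not tested.

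**Figure D3:**
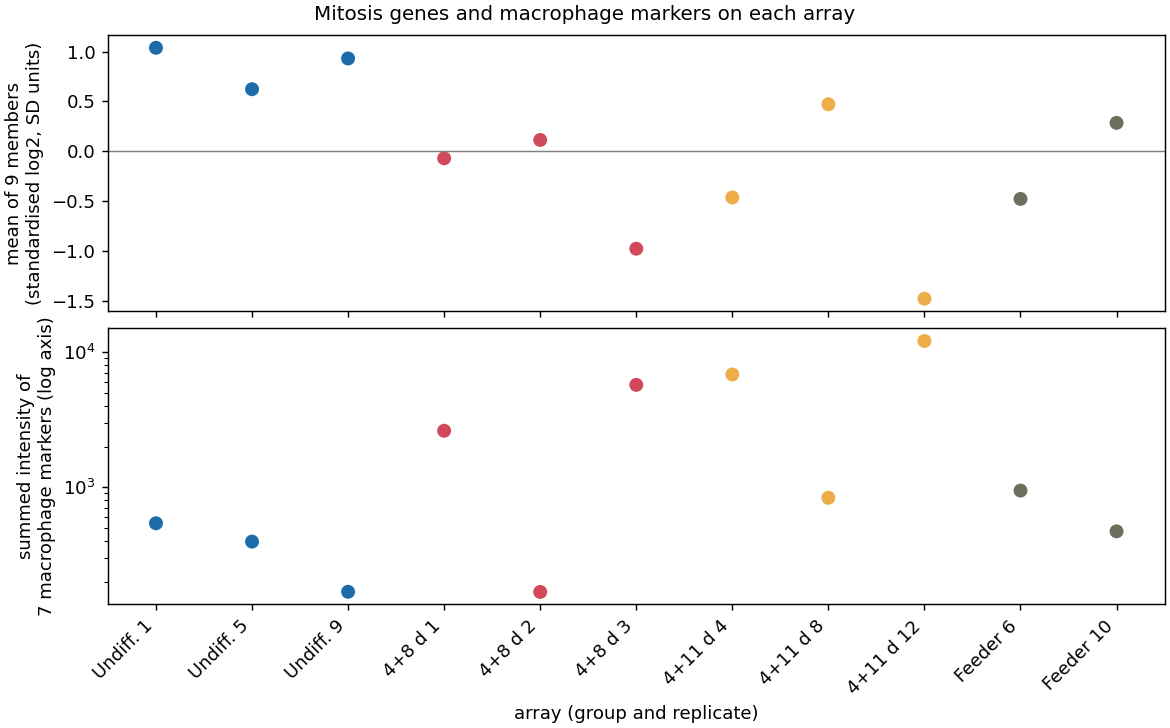
Mean standardised log2 intensity of the 9 members on each array (upper panel, SD units) above the summed intensity of the 7 macrophage markers (lower panel, log axis), with 1 point per array. Among the differentiated arrays, 4+11 day replicate 12 was lowest in the upper panel, at −1.48, and highest in the lower, at 12084.

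Because the scale of the 4+8 day arrays differed, each member was also set against Cdk1 on the same array with values as deposited, a ratio that no scaling factor of an array changes. Ratios are given as the log2 change from the mean of the undifferentiated arrays, and this measure was chosen after the values were seen. With 3 arrays against 3, or 2 against 3, an exact permutation test cannot go below p = 0.1, so none could pass. At 4+8 days 5 of 8 ratios lay below all undifferentiated arrays, each at that smallest two-sided p of 0.1, as did 14.7% of the ratios of all 8939 other probe sets to Cdk1. They were Bub1 at −1.57 ± 0.77 (SD, n = 3), Aurka at −1.39 ± 0.57, Mad2l1 at −1.27 ± 0.78, Top2a at −0.95 ± 0.46 and Plk1 at −0.55 ± 0.07. The ratios of the cyclins were near 0, with Ccna2 at 0.01 ± 0.40 and Ccnb2 at −0.08 ± 0.31, both overlapping the undifferentiated arrays. A ratio shows unequal change and not which of the genes changed.

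At 4+11 days 2 of 8 ratios lay below all undifferentiated arrays, Bub1 at −0.74 ± 0.29 and Aurka at −0.67 ± 0.10, and 1 lay above them, Mki67 at 0.74 ± 0.04 (exact permutation test, two-sided p = 0.1 for each of the 3). Over all other probe sets 6.23% of ratios lay below and 39.9% above. The other 5 ratios overlapped. In feeder cells 5 of 8 ratios lay below all undifferentiated arrays and 1 above, against 14.2% and 33.0% over all other probe sets. Those below were Bub1 at −0.78 ± 0.16 (SD, n = 2), Aurka at −0.76 ± 0.02, Plk1 at −0.69 ± 0.33, Ccnb2 at −0.34 ± 0.31 and Top2a at −0.11 ± 0.06 (exact p of 0.1, 0.1, 0.2, 0.1 and 0.2). Mki67 lay above at 0.64 ± 0.16 (exact p = 0.2), and Ccna2 and Mad2l1 overlapped. The Aurka ratio was tight among undifferentiated arrays (SD of 0.04) and in feeder cells, and widest at 4+8 days.

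**Figure D4:**
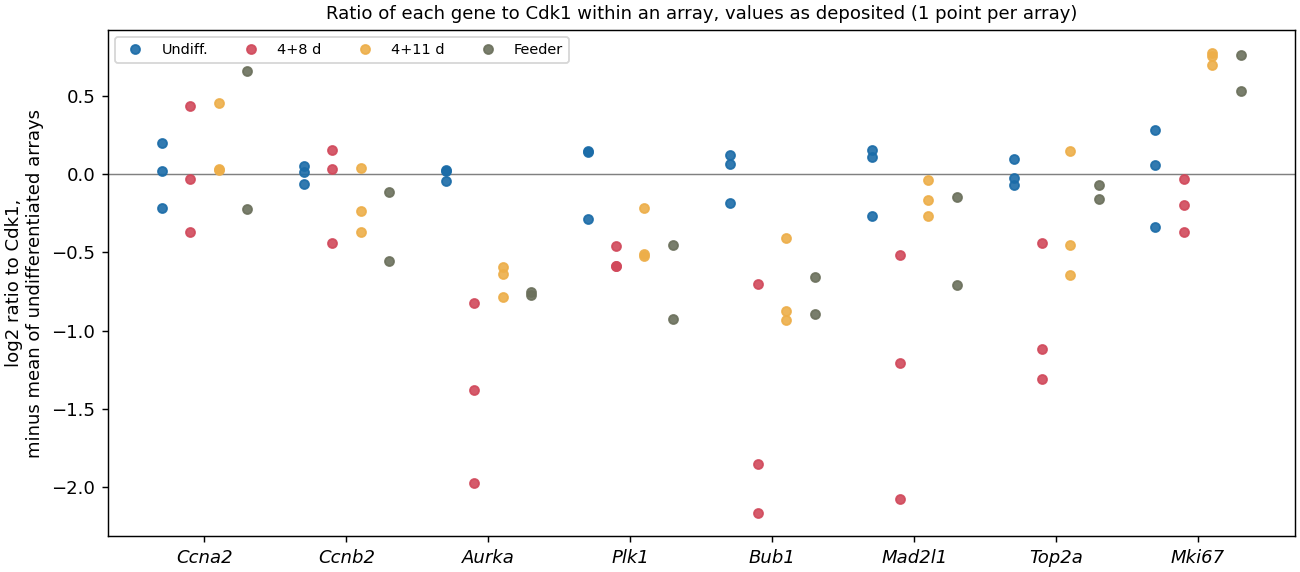
Log2 ratio of 8 members to Cdk1 on the same array, values as deposited, minus the mean of the 3 undifferentiated arrays (vertical axis), with 1 point per array coloured by group. Aurka and Bub1 had every differentiated and feeder array below the undifferentiated ones, and Mki67 had the 4+11 day and feeder arrays above them.

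A wider list of 109 other mitosis genes, arranged in 8 role groups, had 78 with a probe set and 73 tested. Each gene of this list stands by its brightest tested probe set, and where a gene had 2, as Mybl2 did, the other is not given. At 4+8 days 24 of the 73 fell and 6 rose, with a median of −0.38, and at 4+11 days 14 fell and 3 rose, with a median of −0.37. The share of all probe sets that passed was 37.1% and 18.7%. In feeder cells 8 were lower and 2 higher than in undifferentiated cells, with a median of −0.29, a smaller share than the 20.4% of all probe sets. For the role groups below, the counts stand beside shares over all probe sets of 19.9% lower and 17.2% higher at 4+8 days, and 9.44% lower and 9.22% higher at 4+11 days. The named genes kept their direction with values as deposited, except Stag1 and Zw10 at 4+8 days, which came to 0.09 and 0.02.

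Transcription factors of the mitotic programme held the widest difference. Mybl2 encodes B-Myb, which activates late cell cycle genes. Its intensity was 934, 929 and 1054 in undifferentiated cells, 18.01, 15.7 and 16.3 at 4+8 days, 20.05, 67.8 and 34.6 at 4+11 days and 53.7 and 88.3 in feeder cells. Every array outside the undifferentiated group was below 100. Its log2 differences were −5.31 ± 0.33 (adjusted p = 9.0e-06), −4.45 ± 0.33 (adjusted p = 5.1e-05) and −3.67 ± 0.36 (adjusted p = 0.000309). The 4+8 day arrays lay below the filter value of 33.4, so the size there depends on the pseudocount. Nfyb, a subunit of the factor that binds CCAAT boxes, fell by 1.66 and 1.20 at the 2 times and was lower by −0.97 in feeder cells. Of the 10 tested genes of this group, 3 fell at 4+8 days and 2 at 4+11 days, and none rose.

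Among regulators of CDK1, 3 of 7 fell at 4+8 days and 4 of 7 at 4+11 days. Ccnf, which encodes cyclin F of an SCF ubiquitin ligase, read between 596 and 647 in undifferentiated cells, between 185 and 257 at 4+8 days, between 171 and 292 at 4+11 days, and 213 and 245 in feeder cells. It fell by 1.46 and 1.44 on the log2 scale, with −1.42 in feeder cells (adjusted p of 0.000975, 0.00278 and 0.00432). Wee1, the kinase that holds CDK1 inactive, fell by 1.23 and 1.09. The other falls, named after their values were seen, were the CDK-binding proteins Cks2 at both times and Cks1b at 4+11 days (−0.70).

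The anaphase-promoting complex, which tags cyclin B for destruction, had 10 tested genes. At 4+8 days 4 of them rose and 1 fell, and at 4+11 days 2 rose and 1 fell, where 17.2% and 9.22% of all probe sets rose. Cdc16, a core subunit, averaged 410.4 ± 15.5 (SD, n = 3) in undifferentiated cells, 1224 ± 83.6 at 4+8 days and 827 ± 113 at 4+11 days, with log2 differences of 1.56 ± 0.17 and 0.99 ± 0.17 (adjusted p of 0.000182 and 0.00412). It rose while Cdc20 fell. Cdc20, the activator that MAD2 holds back, gave 2106, 1804 and 2369.6 in undifferentiated cells, 1163, 1133 and 654 at 4+8 days, 629, 1144 and 493 at 4+11 days and 805 and 1010.3 in feeder cells. Its differences were −1.12 ± 0.33 (adjusted p = 0.0237), −1.54 ± 0.33 (0.0112) and −1.20 ± 0.37 (0.0454). Anapc1 rose at 4+8 days by 0.61 and Anapc4 at 4+11 days by 0.96.

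At the kinetochore 4 of 8 tested genes fell at 4+8 days and 1 rose, while at 4+11 days none fell and 1 rose. Sgol1, which protects the cohesin of centromeres, and Zw10, which carries checkpoint proteins, fell by 1.42 and 1.20 at 4+8 days. Their means at 4+8 days, 31.7 and 21.8, lay below the filter value, so the sizes of both falls depend on the pseudocount. Zwint, a kinetochore protein that binds ZW10, rose by 1.03 ± 0.18 and 0.83 ± 0.18 at the 2 times (adjusted p of 0.00202 and 0.0119), with means of 925 ± 25.9 (SD, n = 3) before and 1900.4 ± 170.5 and 1659.8 ± 236 after. Of 9 mitotic kinases and chromosomal passenger genes 3 fell at each time and none rose. Haspin, which phosphorylates histone H3 at centromeres, averaged 69.0 in undifferentiated cells, 1.94 at 4+8 days and 28.8 at 4+11 days (−2.94 and −1.06), and as both later means lie below the filter value these sizes depend on the pseudocount. Plk4, the kinase of centriole duplication, fell by 1.77 at 4+8 days, and Nek2, which parts the centrosomes, fell by 1.38 at 4+11 days.

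Of the 16 tested spindle genes 5 fell at 4+8 days and 2 at 4+11 days. Spag5 fell by 1.89 and Kif11, the motor that pushes the spindle poles apart, by 1.15 at 4+8 days. Spag5 averaged 8.77 at 4+8 days, below the filter value, so the size of its fall depends on the pseudocount. Kif20a and Kif22 fell by 1.17 and 0.74 at 4+11 days. Among 4 cytokinesis genes 3 fell at 4+8 days and 2 at 4+11 days. Ect2, which activates RhoA at the cleavage plane, fell by 1.97 and 1.44. Anln, which encodes the ring protein anillin, read between 620.1 and 692 in undifferentiated cells, between 161 and 228 at 4+8 days and between 255 and 355 at 4+11 days, but 563 and 639 in feeder cells. It fell by 1.73 and 1.10, and it was the 1 gene of the 73 that differed between 4+11 day and feeder cells (−0.96 ± 0.22, adjusted p = 0.0473). Of 9 genes of cohesin and condensin, Smc2 and Stag1 fell at 4+8 days by 1.17 and 1.04 and Stag2 rose by 0.87, and none passed at 4+11 days.

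Of the genes that passed in feeder cells against undifferentiated cells, the widest difference after Mybl2 was Plk2, a relative of Plk1, at 1.77. Ccnf, Kif22 and Cks2 came next among them, at −1.42, −1.24 and −1.23. Between 4+8 day and feeder cells 12 of the 73 were lower and 7 higher, a count near the share of all probe sets (27.4%). Among them were Plk4 (−2.03), Cdc25a (1.23) and Haspin (−2.20), whose size depends on the pseudocount as above.

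**Figure D5:**
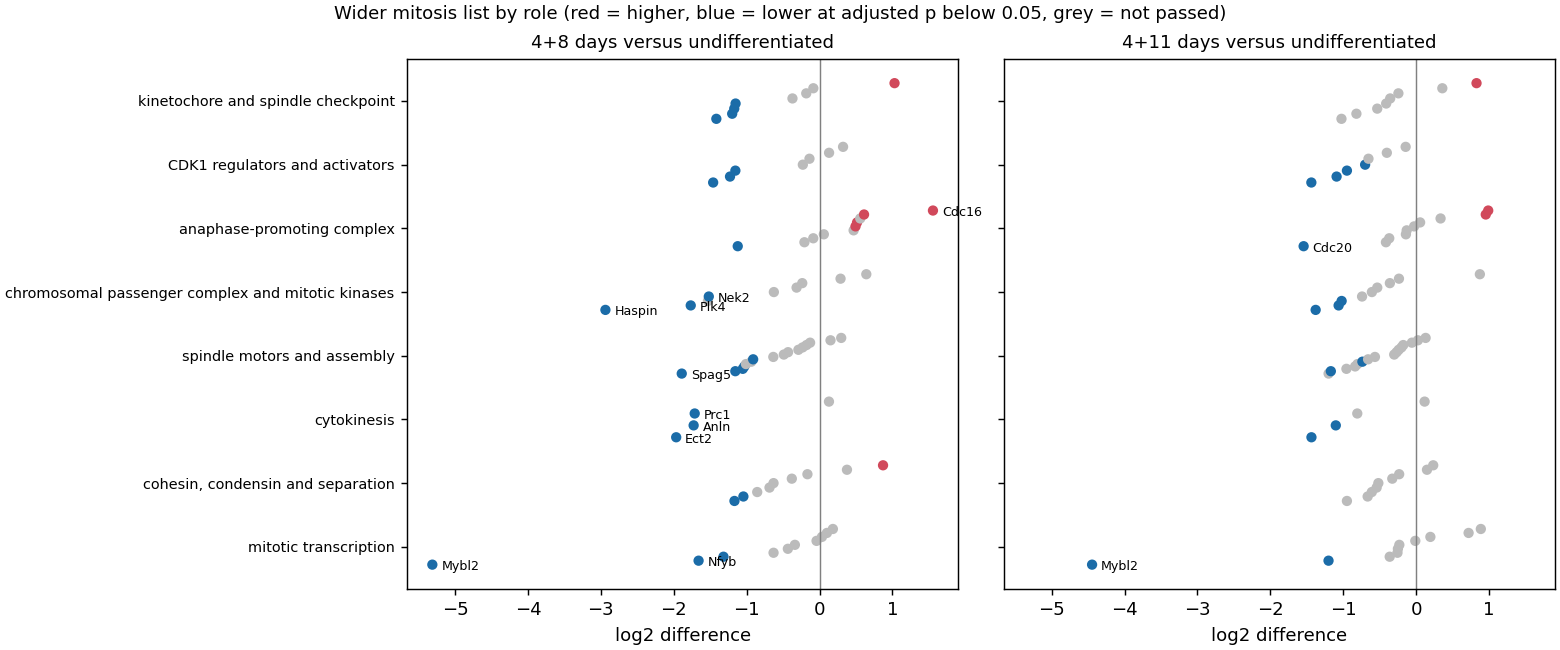
Log2 difference from undifferentiated cells (horizontal axis) for the 73 tested genes of the wider list in 8 role groups, at 4+8 days and at 4+11 days. Points are red where higher and blue where lower at an adjusted p below 0.05 and grey otherwise, and Mybl2 is farthest to the left in both panels.

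The mean of the standardised log2 values of the 9 members served as their common pattern over the 11 arrays, and 6641 other genes were ranked by Pearson correlation with it. The 10 most alike were Uhrf1 (0.973), Kif2c (0.961), Psip1 (0.956), Cdc20 (0.944), Smc4 (0.942), Smarcd1 (0.939), Rfc4 (0.932), Brd8 (0.931), Mcm7 (0.930) and Cdca7l (0.925). Kif2c, Cdc20 and Smc4 were on the wider list. The most opposite were Tinagl1 (−0.966), Asah1 (−0.963), Plin2 (−0.953), Prkcd (−0.946) and Ctsd (−0.939). Each member was also set against the mean of the other 8. Top2a followed it most closely (0.935) and Mki67 least (0.429), while after each group's mean was removed Top2a was again highest (0.966), Mki67 came to 0.813 and Plk1 was lowest (0.671). These correlations describe 11 arrays in 4 groups and carry no test.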

How the data were processed

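Each of the 11 arrays gave 1 intensity per probe set for 12488 probe sets, on a linear scale as deposited by the authors. The summarising program, not given in the sources used here, leaves the background correction of these values unknown. Arrays were grouped by title, and sessions, runs and wash protocols came from the experiment files, per the file headers.

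Intensities were quantile normalised over all arrays. After 66 controls were removed, probe sets above 33.4 (the 40th percentile) on at least 2 arrays were kept, and log2(intensity + 8) of these 8940 was modelled by limma 3.58.1, R 4.3.3 (lmFit and eBayes, 4 groups, two-sided, Benjamini-Hochberg adjustment). Symbols came from the platform annotation, in which 10833 probe sets had 1 symbol, 396 had several and 1193 were unnamed here. The number of arrays limits the precision.

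The members, the wider list and the marker lists were chosen with earlier results of these data known. All members are named, and of the wider list up to 2 rises and 2 falls with the widest difference per role group and comparison, unless said otherwise. Simulated data for the 4+8 day comparison were run on 8940 probe sets. Of 100 changes of log2 size 1, 35% were recovered, and of 100 of size 2, 73%, with 5 false calls. In the measured 4+8 day comparison 37.1% of all probe sets passed, and recovery with so large a share passing was not tested. Alternatives covered the scale, the pseudocount (2 and 32), the filter, the variance model, wash, run and single arrays.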

Additional observations from a re-analysis of the deposited data

Results flagged for a closer look

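Both differentiated groups were compared with the same undifferentiated arrays, and the test of the difference between them, 4+11 against 4+8 days by limma, passed for 1 of 13 member probe sets and 11 of 73 genes of the wider list, both smaller shares than the 23.1% of all probe sets that passed. The member was the dim Mki67 probe set, at −0.68 on the log2 scale (adjusted p = 0.0419), while the brighter Mki67 probe set did not pass. Only the 4+8 day arrays and feeder replicate 6 exceeded the filter value for the dim one. It was thus tested because it was high at 4+8 days, so its call is no independent result, and its size depends on the pseudocount. Genes lower at 4+11 than at 4+8 days were Plk3 (−0.82), Cdc25a (−0.78), Anapc1 (−0.75), Stag2 (−0.64) and Cdc16 (−0.57). Genes higher at 4+11 days were Plk4 (1.41), Cenpc1 (0.80) and Anln (0.63), and, from low levels, Haspin (1.87), Rbl2 (1.35) and E2f1 (1.07). The last 3 had mean intensities of 1.94, 14.1 and 26.5 at 4+8 days, all below the filter value of 33.4, and of 28.8, 42.2 and 60.9 at 4+11 days, so the sizes of their differences depend on the pseudocount of 8. Adjusted p ran from 0.00111 to 0.0492. The 4+8 day arrays had a scan session of their own, so group and session cannot be told apart in all 12.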

How the results depend on the processing

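Counts below are genes past the threshold, in the order members, wider list, all probe sets where several are given. With values as deposited, members came to 0 at 4+8 days, 0 at 4+11 days, 1 between the times and 0 in feeder cells (each of the first, second and last against undifferentiated cells), all probe sets at 4+8 days to 5381, and the wider list at 4+11 days to 7 and against feeder cells to 0. That scale also reversed Cdk1 (0.63), Mki67 (0.42), Ccna2 (0.63), Ccnb2 (0.54) and Plk1 (0.084) at 4+8 days, Bub1 (−0.056), Aurka (−0.17) and Top2a (−0.25) between the times, and Cdk1 (0.11) and Ccna2 (0.32) in feeder cells. A common trimmed mean gave 5 members at 4+8 days and 7 wider genes between the times, and turned Ccna2 against feeder cells at 4+8 days to −0.066. For 4+11 day against feeder cells the wider count was 0 with pseudocount 2, 2 with pseudocount 32, 0 with no filter and 2 with an intensity trend. No filter gave 0 members in feeder cells and 7 wider genes between the times. Array weights gave 5, 28 and 2752 at 4+11 days, 5, 28 and 3675 in feeder cells, 1 wider gene and 862 probe sets between the times, and 6 and 913 for 4+11 day against feeder cells. Without the other wash protocol the counts were 19 wider genes and 2076 probe sets at 4+8 days, 0, 4 and 406 at 4+11 days, 2 wider genes and 909 probe sets between the times, 1, 5 and 780 in feeder cells, and 0 wider genes and 124 probe sets for 4+11 day against feeder cells. Cdk1 at 4+8 days then came to 0.014. Against feeder cells at 4+11 days, Mki67 (0.064), Bub1 (0.095), Ccnb2 (0.0060), Plk1 (0.26), Aurka (0.033) and Mad2l1 (0.23) turned positive both there and with the run as a block. Without the 4+8 day arrays the counts were 5, 26 and 2731 at 4+11 days, 4, 16 and 2843 in feeder cells, and 2 wider genes and 664 probe sets for 4+11 day against feeder cells. The run as a block, which also left out the 4+8 day arrays, gave 5, 24 and 3135 in feeder cells. For 4+11 day against feeder cells it gave 2 wider genes and 616 probe sets. The dimmest probe set per gene gave 1 member between the times and 1 in feeder cells. The cause of these shifts was not tested.

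Leaving out 1 array at a time, members ranged from 2 to 5 at 4+8 days, 0 to 5 at 4+11 days, 0 to 1 between the times, 0 to 3 in feeder cells, 0 to 0 for 4+11 day and 0 to 1 for 4+8 day against feeder cells. The wider list ranged, in that order, from 20 to 34, 7 to 23, 2 to 12, 1 to 13, 0 to 2 and 8 to 20, and all probe sets from 2275 to 3731, 778 to 2250, 969 to 2420, 487 to 2402, 47 to 460 and 728 to 2831. Log2 differences that crossed 0 were at 4+8 days Ccna2 (−0.21 to 0.051), Cdk1 (−0.16 to 0.039) and Ccnb2 (−0.37 to 0.10), at 4+11 days Mki67 (−0.12 to 0.33), between the times Top2a (−0.26 to 0.53), and in feeder cells Mki67 (−0.17 to 0.71). Against feeder cells they were Ccna2 (−0.10 to 0.16) and Cdk1 (−0.027 to 0.64) at 4+8 days, and at 4+11 days Cdk1 (−0.61 to 0.0499), Mki67 (−0.61 to 0.26), Bub1 (−0.53 to 0.095), Ccnb2 (−0.31 to 0.0060), Plk1 (−0.16 to 0.26), Aurka (−0.46 to 0.15) and Mad2l1 (−0.28 to 0.23). None of these passed the test. Over all alternatives, 948 values of single members kept their direction and side of the threshold, 47 kept the direction but no longer passed, 35 newly passed and 50 reversed. No paired analysis was made. The groups compared share fewer than 2 replicate numbers, and the labels do not say which cultures of different groups belong together.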
